A study of Mus musculus with 22 samples.

Results

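The 10 genes described here encode the core of the microRNA pathway: the Argonautes Ago1, Ago2, Ago3 and Ago4, the nuclear microprocessor Drosha and Dgcr8, the cytoplasmic nuclease Dicer1, and the scaffold proteins Tnrc6a, Tnrc6b and Tnrc6c. They were taken by symbol from the 24421 genes of the count tables, in which each had 1 row, and all 10 passed the filter on low counts in every comparison. The set was put together with results of the female rank comparison in view, in which Ago3 and Tnrc6b had been called, so the values of that comparison are given below without a test.

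MicroRNAs are short RNAs that silence messenger RNAs. Drosha and its partner Dgcr8 cut hairpins out of primary transcripts in the nucleus, Dicer1 trims them to the mature length in the cytoplasm, and an Argonaute holds the mature strand and pairs it with target transcripts, mainly through the seed at bases 2 to 8. TNRC6 proteins bind the Argonaute and recruit the deadenylation machinery, and Ago2 is the Argonaute that can itself cut a target. In neurons the pathway acts on local translation and on the maintenance of cell identity.

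Total RNA of the right brain hemisphere was sequenced from untreated C57BL/6JOlaHsd mice, an inbred strain, of either sex, for which the labels name no transgene. Rank had been set at 10 to 12 weeks of age by the tube test, a contest between cage mates over a narrow tube, in cages of 4 mice. The libraries came from 7 dominant and 7 submissive males and from 4 dominant and 4 submissive females. Each cage gave 1 dominant and 1 submissive mouse, sacrificed together, and cages are numbered here by the replicate number that both mice share, male cages 1 to 7 and female cages 1 to 4. Males and females were sequenced as separate projects, so sex and sequencing project cannot be told apart, and the labels do not say which females, if any, came from groups mixed anew for a second round of testing (female cages 3 and 4 carry group names in place of cage numbers).

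Between 12403943 and 16488762 reads per library were counted on genes, and the members had 234 to 3008 counts each per library. Levels are given as CPM, counts relative to the library size after TMM scaling over all 22 libraries, and as CPM per kilobase of exon where genes are compared with each other. Of the 11 marker lists checked, the neuronal, astrocytic, oligodendrocytic and microglial markers were all detected in every library. Dominant male 1 stood apart with 11.1 CPM summed over 4 cerebellar markers, against 216 to 517 CPM in the other libraries, and submissive female 3 had 15.9 CPM of pituitary markers, against at most 0.785 CPM in the other libraries. In a whole hemisphere, fewer cells of a type and less RNA per cell cannot be told apart.

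Ago3, Ago1 and Ago4 stand next to each other on the minus strand of chromosome 4 (mm10, chr4:126340678-126533458), with 5470 bases between Ago3 and Ago1, 21121 bases between Ago1 and Ago4 and no other gene of the tables within the 192781 bases. Ago2 lies on chromosome 15, as do Drosha and Tnrc6b, and the other members are on chromosomes 7, 11, 12 and 16. The 250 bases upstream of the RefSeq start sites (GRCm38.p6, minus strand, 5′ to 3′) are shown for the 3 neighbours because they share a locus. Of these only Ago3 passed the test between male cages below, where Ago4 came near the threshold (adjusted p = 0.0552, edgeR). A link of these sequences to levels was not tested. Capitals mark GC boxes (letters GGGCGG), boxes of the letters CCAAT and ETS sites (letters CCGGAAG) on either strand.
Ago3, chr4:126429543-126429792: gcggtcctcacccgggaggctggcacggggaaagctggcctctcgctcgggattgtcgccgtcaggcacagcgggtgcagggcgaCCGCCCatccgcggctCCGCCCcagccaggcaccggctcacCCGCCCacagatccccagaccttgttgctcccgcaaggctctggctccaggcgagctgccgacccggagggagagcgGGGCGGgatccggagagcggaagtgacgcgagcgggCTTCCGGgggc
Ago1, chr4:126468632-126468881: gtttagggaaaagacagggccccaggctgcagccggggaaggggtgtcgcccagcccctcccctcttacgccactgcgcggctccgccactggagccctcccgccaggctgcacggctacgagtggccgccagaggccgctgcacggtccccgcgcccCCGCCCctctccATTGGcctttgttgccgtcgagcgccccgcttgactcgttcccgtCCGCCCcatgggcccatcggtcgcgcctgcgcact
Ago4, chr4:126533459-126533708: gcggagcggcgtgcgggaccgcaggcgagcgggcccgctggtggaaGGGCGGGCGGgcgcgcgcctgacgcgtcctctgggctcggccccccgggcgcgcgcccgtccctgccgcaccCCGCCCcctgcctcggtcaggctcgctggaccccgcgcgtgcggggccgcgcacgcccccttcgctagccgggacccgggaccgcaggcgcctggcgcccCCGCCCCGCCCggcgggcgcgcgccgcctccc
All 3 windows held a GC box, which was found in 32.7% of the 32851 promoters of the same length in the table. A CCAAT box was present in the window of Ago1 (33.8% of promoters) and an ETS site in that of Ago3 (6.91% of promoters). Of the 9 members with an entry, 6 held a GC box, 5 a CCAAT box and 2 an ETS site, while no TATA box (TATAAA, 12.4% of promoters), E-box (CACGTG, 6.02%) or CRE (TGACGTCA, 1.55%) was found in any of the 9. Neighbouring GC boxes overlap in the window of Ago4. The 9 windows ran from 42.4% G and C for Tnrc6a to 85.6% for Ago4, with a median of 52.4% over the table, and 8 of the 9 held at least 10 CpG, against 37.8% of all promoters.

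The transcript of Dgcr8 itself contains hairpins that the microprocessor is known to cut, a background that bears on how its reads were counted. The mature RNAs from these hairpins, and that of a hairpin in Tnrc6b, are shown 5′ to 3′ from RefSeq with the seed in capitals.
miR-1306-5p: cACCACCUccccugcaaacgucc
miR-1306-3p: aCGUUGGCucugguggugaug
miR-3618-5p: uGUGAUUUccaauaauugaggc
miR-3618-3p: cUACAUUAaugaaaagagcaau
miR-5113: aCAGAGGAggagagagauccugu
The seeds of the 5 RNAs all differ. The hairpin of miR-1306 (chr16:18284239-18284317) lies in the coding sequence of Dgcr8, that of miR-3618 (chr16:18284550-18284637) in its untranslated exon sequence and that of miR-5113 (chr15:80940039-80940120) in untranslated exon sequence of Tnrc6b. All 3 hairpins have their own row in the tables, with 0 counts over the 22 libraries, and libraries of this kind do not capture mature microRNAs. Of the 4225 exon bases of Dgcr8, 975 are shared with these hairpins or with Trmt2a, and of the 17528 of Tnrc6b 82 are shared, so the level of Dgcr8 is uncertain. The other 8 members share no exon base with another gene of the annotation.

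The members covered a wide range of levels. Per kilobase of exon, Drosha was the highest with 19.6 ± 1.05 CPM per kb (SD, n = 14) in males and 20.7 ± 0.876 (SD, n = 8) in females, and Ago4 the lowest with 3.53 ± 0.487 and 2.75 ± 0.279 CPM per kb. Drosha was above the next gene, Tnrc6a, in all 14 males and all 8 females, and Ago4 was below Dicer1, the ninth in order, in every library without overlap.

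**Figure D1:**
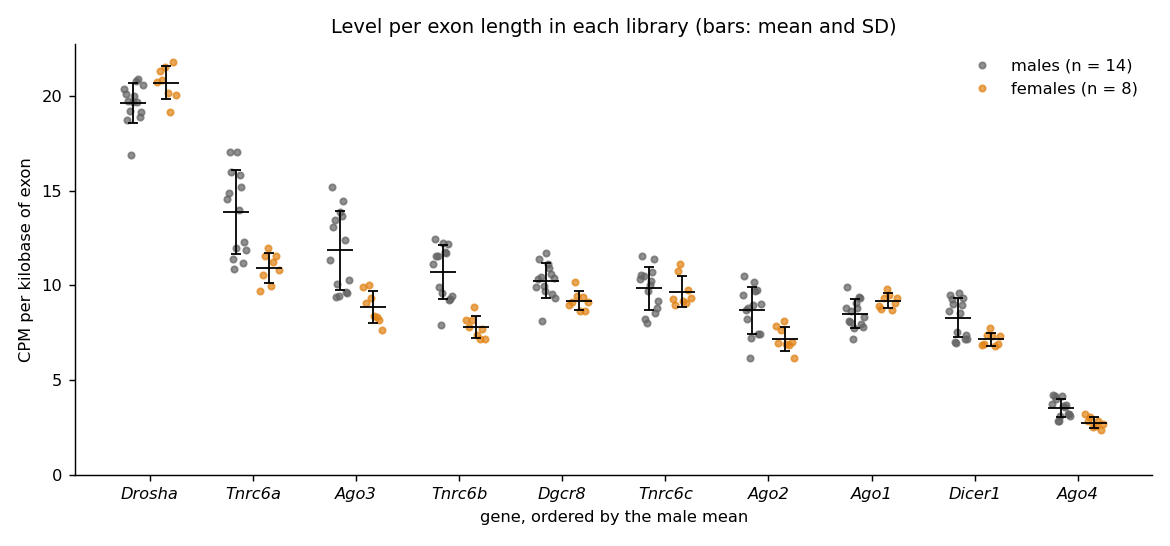
CPM per kilobase of exon (vertical axis) for the 10 genes in each of the 14 male (grey) and 8 female (orange) libraries, with black bars for mean and SD. Drosha lies between 16.9 and 21.8 and Ago4 between 2.36 and 4.22 CPM per kb, and the highest values of Tnrc6a (17.0) reach the lowest of Drosha.

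Between these ends the male order was Tnrc6a (13.8 CPM per kb), Ago3 (11.8), Tnrc6b (10.7), Dgcr8 (10.2), Tnrc6c (9.83), Ago2 (8.68), Ago1 (8.51) and Dicer1 (8.29). In females it was Tnrc6a (10.9), Tnrc6c (9.67), Dgcr8 (9.20), Ago1 (9.18), Ago3 (8.85), Tnrc6b (7.79), Ago2 (7.18) and Dicer1 (7.14). Several neighbours in these orders were not separated: in males Dgcr8 exceeded Tnrc6c in 7 of 14 libraries, Ago2 exceeded Ago1 in 9 and Ago1 exceeded Dicer1 in 10, and in females Dgcr8 exceeded Ago1 in 4 of 8 and Ago2 exceeded Dicer1 in 6. The ranges of all neighbours from Tnrc6a to Dicer1 overlapped in either sex.

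Within the Argonautes, Ago3 had the largest share of the summed CPM per kb in males, 36.2% ± 2.59 (SD, n = 14), and was the highest of the 4 in all 14. Ago1 held 26.3% ± 1.72, Ago2 26.6% ± 1.80 and Ago4 10.9% ± 0.799. In females Ago1 held 32.9% ± 2.06 (SD, n = 8) and Ago3 31.6% ± 1.38, with Ago3 the highest in dominant females 1, 2 and 3 and Ago1 in the other 5. Ago2 held 25.7% ± 1.00 in females. Among the TNRC6 genes, Tnrc6a was the highest with 40.2% ± 1.62 in males and 38.5% ± 1.63 in females, while Tnrc6c followed in females (34.1% ± 0.857) and Tnrc6b in males (31.2% ± 1.31).

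Rank was compared first in males, where the question was whether dominant and submissive cage mates differ. None of the 10 members was called by the quasi-likelihood F test of edgeR, adjusted over 14737 genes after Benjamini and Hochberg (adjusted p = 1.00 for each), none had an unadjusted p below 0.05, and 0% of all genes were called (194 genes had an unadjusted p below 0.05, and DESeq2 called 0). Fold changes of dominant over submissive males ran from -0.08 on the log2 scale for Ago2 (standard error 0.0988; -0.14 without dominant male 2 and -0.016 without dominant male 6) to 0.01 for Ago4 (standard error 0.0972). The median over the members was -0.04, against -0.00 over all genes tested, with 8 of 10 below 0.

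Ago3 had 71.5, 86.6 and 116 CPM as the lowest, median and highest value in dominant males and 73.4, 94.4 and 110 CPM in submissive males. Tnrc6b had 139, 194 and 218 CPM in dominant males and 162, 205 and 215 CPM in submissive males. The ranks overlapped for both genes, and the lowest Tnrc6b value was that of dominant male 6. The dominant mouse was the higher of its cage in 3 of 7 cages for Ago3, for Tnrc6b, for Ago2, for Ago4 and for Dicer1, in 2 of 7 for Ago1, Drosha and Dgcr8, in 4 for Tnrc6c and in 5 for Tnrc6a. Without dominant male 1, the library with few cerebellar transcripts, the fold changes ran from -0.11 for Ago2 to 0.00 for Ago4 and again 0 members were called.

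In females, the comparison that brought these genes together, dominant values came out higher for several members. Ago3 was higher in all 4 dominant mice than in any submissive mouse. Its values were 75.7, 69.1, 76.6 and 71.1 CPM in dominant females 1 to 4 and 64.0, 63.6, 62.2 and 58.5 CPM in their submissive cage mates, or 0.23 higher on the log2 scale (standard error 0.0436). For Tnrc6b the dominant mice of cages 1 to 4 had 143, 136, 143 and 155 CPM and their submissive cage mates 129, 126, 135 and 126 CPM, or 0.16 higher on the log2 scale (standard error 0.0388). These were the 2 members whose groups did not overlap, in the direction in which 3.36% of all genes did not overlap. Ago3 was called by edgeR, which called 0.0942% of 14865 genes, and Ago3 and Tnrc6b by DESeq2, which called 1.49% of the 5222 genes it kept, and since the genes were chosen from this comparison nothing is read from these counts. With edgeR no gene, Ago3 included, was called with the exon length trend removed, at a mean count of at least 500, or without submissive female 1 or 3.

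Ago2 was also higher in the dominant mouse of all 4 cages, with 62.9, 55.6, 61.3 and 65.2 CPM against 55.3, 55.2, 56.3 and 49.7 CPM in the submissive mice, or 0.17 higher on the log2 scale (standard error 0.0510). Its groups overlapped, as dominant female 2 lay below submissive female 3. Ago4 was 0.15 higher (standard error 0.0783) and Tnrc6c 0.10 higher (standard error 0.0549), each with the dominant mouse higher in 3 of 4 cages. The fold changes of Dgcr8 (0.06), Drosha (0.05), Dicer1 (0.02), Ago1 (-0.00) and Tnrc6a (-0.00) came with standard errors of 0.0400 to 0.0552. Ago1, which lies between Ago3 and Ago4 on the chromosome, had 65.0 ± 3.37 CPM in the dominant mice and 64.7 ± 2.53 CPM in the submissive mice (SD, n = 4 each).

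Over all genes the median log2 fold change was 0.03 among the 4235 genes at least as long as Dgcr8, the shortest member at 4225 exon bases, and -0.02 among shorter genes. With each library's trend of counts on exon length removed, the fold change of Ago3 was 0.18 and that of Tnrc6b, the longest member with 17528 exon bases, 0.07. Tnrc6c was then at 0.04, Dicer1, Ago1 and Tnrc6a were below 0 at -0.04, -0.04 and -0.05, and Ago2 stood at 0.12.

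The size of several values also varied between pairs of cages, though a difference between the pairs was not tested. In female cages 1 and 2 alone Ago3 differed by 0.18, and in cages 3 and 4 by 0.28. Ago2 was at 0.10 in the former and 0.24 in the latter, Tnrc6c at 0.0020 and 0.18, Dgcr8 at 0.0010 and 0.13, Dicer1 at -0.04 and 0.07 and Tnrc6a at -0.06 and 0.06. Tnrc6b was at 0.13 and 0.18 and Ago1 at -0.04 and 0.04. Drosha and Ago4 went the other way, Drosha with 0.10 and 0.0057 and Ago4 with 0.17 and 0.13. Of the marker lists, only those of red cells and ependyma did not overlap between female ranks. The 3 red cell markers summed to 3.86 to 5.99 CPM in dominant and 2.56 to 3.78 CPM in submissive females. The 3 ependymal markers summed to 11.8 to 14.89 CPM in dominant and 14.94 to 20.9 CPM in submissive females, so both gaps were narrow. The part of red cell and ependymal transcripts in the female values was not tested. Without submissive female 3, the library with pituitary transcripts, Ago3 was at 0.23, Tnrc6b at 0.18, Ago2 at 0.19 and Ago4 at 0.11, and Drosha was at 0.09. Ago3 thus had a log2 fold change of -0.04 in males and 0.23 in females, and whether these differ was not tested, because the members were chosen on the female value.

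**Figure D2:**
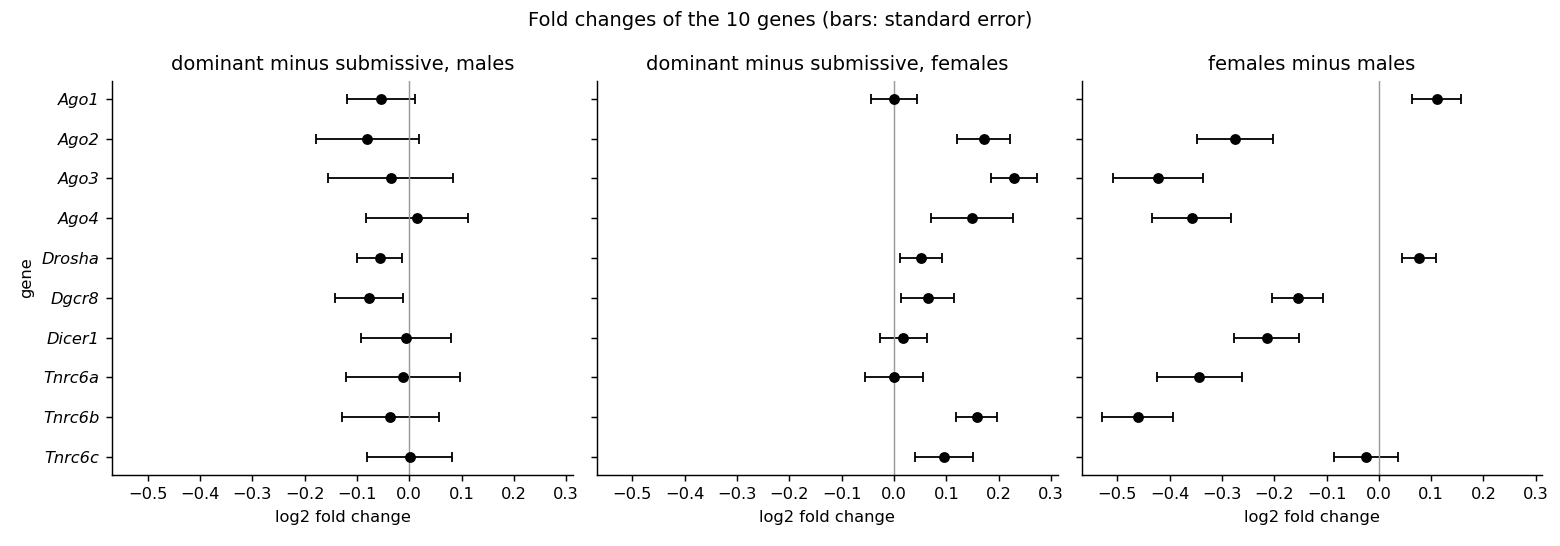
Log2 fold change (horizontal axis) with its standard error for each of the 10 genes (vertical axis), for dominant minus submissive males, dominant minus submissive females and females minus males. Male values lie between -0.08 and 0.01, Ago3 reaches 0.23 in the female rank panel, and Tnrc6b lies at -0.46 in the panel of females minus males.

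Of the 10 members, 5 differed between the 7 male cages (Ago3, Dicer1, Tnrc6a, Tnrc6b and Tnrc6c), against 5.89% of all genes, in edgeR's F test of all cage terms together with rank in the fit. Adjusted p-values were 0.00284 for Tnrc6a, 0.00389 for Ago3, 0.00477 for Tnrc6b, 0.00575 for Dicer1 and 0.00719 for Tnrc6c. Ago4 (adjusted p = 0.0552) and Ago2 (adjusted p = 0.0595) missed the threshold in the same edgeR test. Ago2 was called by DESeq2 (adjusted p = 0.00258), and without the expression filter edgeR called Ago2 (adjusted p = 0.0172) and Ago4 (adjusted p = 0.0259). In the filtered fit Dgcr8, Ago1 and Drosha had adjusted p-values of 0.132 to 0.284.

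**Figure D3:**
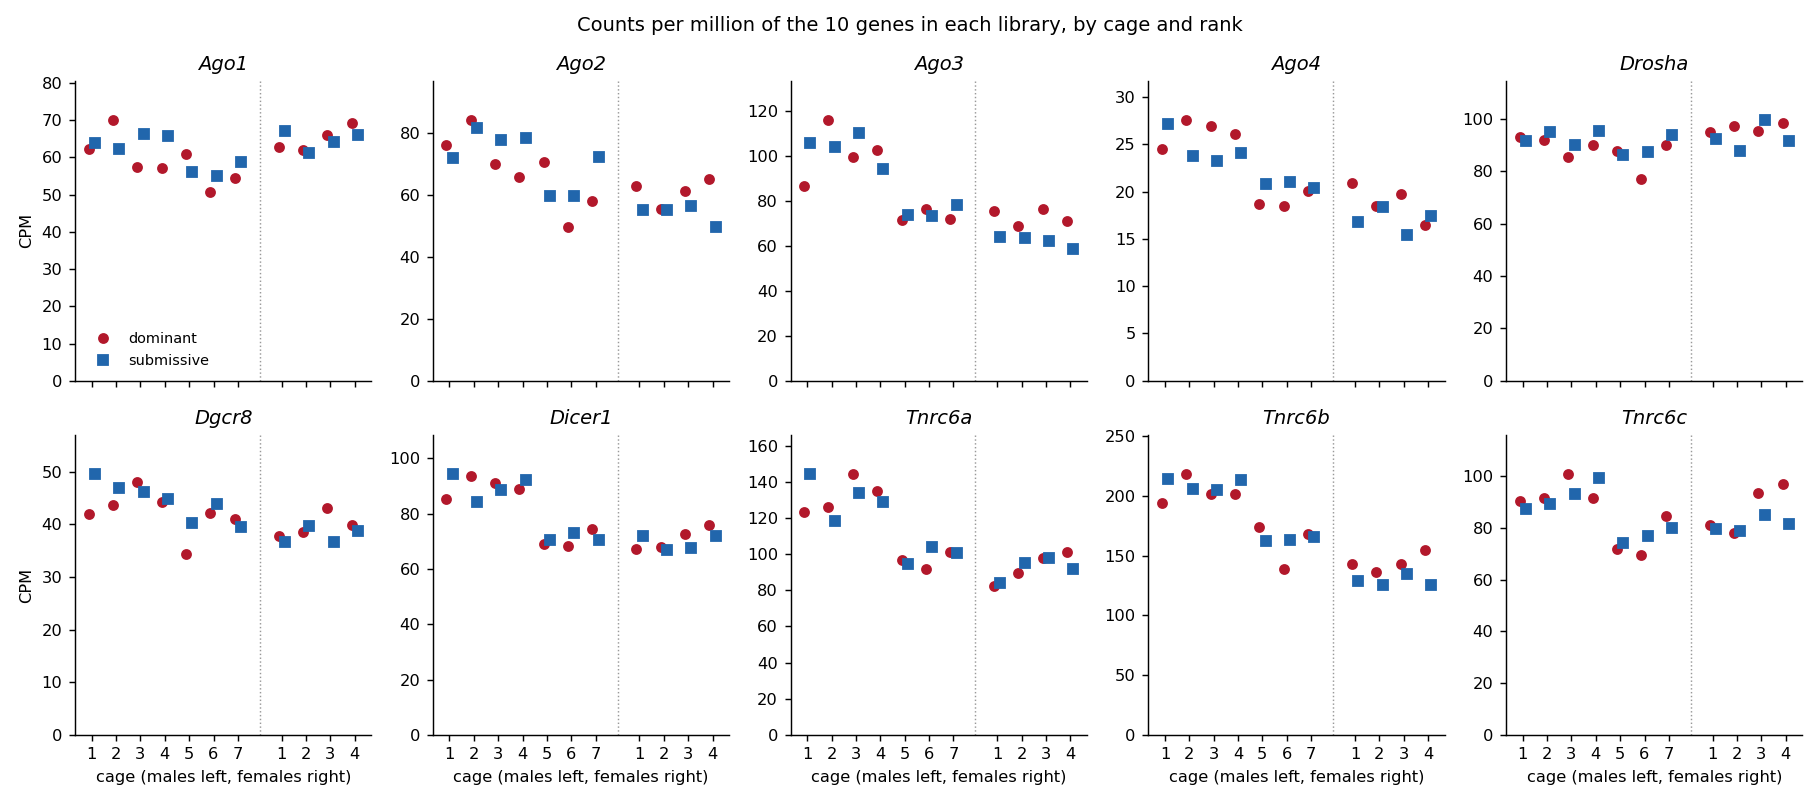
CPM of each of the 10 genes (vertical axes, starting at 0) by cage, with males to the left and females to the right of the dotted line, dominant mice as red circles and submissive mice as blue squares. In males Ago3 runs from 71.5 to 116 CPM with its lowest values in cages 5, 6 and 7, while Drosha stays between 77.1 and 99.5 CPM throughout.

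For these 5 genes both mice of cages 5, 6 and 7 were low. Ago3 had 86.6, 116, 99.7, 103, 71.5, 76.7 and 72.0 CPM in dominant males 1 to 7 and 106, 104, 110, 94.4, 73.7, 73.4 and 78.4 CPM in submissive males 1 to 7. Tnrc6a, a TNRC6 scaffold, had 124, 126, 144, 135, 96.5, 92.0 and 101 CPM in the dominant and 144, 118, 134, 129, 94.6, 104 and 101 CPM in the submissive mice. Dicer1 had 85.3, 93.6, 91.3, 88.8, 69.1, 68.3 and 74.4 CPM in the dominant and 94.3, 84.1, 88.5, 92.1, 70.5, 72.9 and 70.7 CPM in the submissive mice. In each of these genes the 6 lowest males of 14 were the 6 mice of cages 5, 6 and 7, whatever their rank.

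Tnrc6b had cage means of 205, 212, 204, 208, 168, 151 and 167 CPM in cages 1 to 7, and Tnrc6c of 88.8, 90.5, 97.1, 95.6, 73.0, 73.4 and 82.3 CPM. The same cages were again the low ones. Ago4, the least abundant Argonaute, had cage means of 25.8, 25.7, 25.1, 25.1, 19.7, 19.7 and 20.2 CPM. Drosha had 92.3, 93.3, 87.7, 92.8, 87.0, 82.2 and 92.0 CPM, so its cage 7 was level with cages 1 and 4. Ago1, between Ago3 and Ago4 on the chromosome, had 63.1, 66.2, 61.9, 61.5, 58.6, 52.9 and 56.7 CPM.

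The SD of the 7 cage means of Ago3 was 17.4% of its mean, against an SD of 8.07% between mice of a cage. For Tnrc6a these values were 15.9% and 6.38%, for Tnrc6b 13.3% and 5.40%, for Dicer1 12.3% and 4.92% and for Tnrc6c 11.5% and 4.56%. For Ago1 the values were 7.35% and 7.48%, and for Drosha 4.59% and 4.08%. Means over both mice of a cage spread less than single mice even without a cage difference. Equal values therefore do not show that cages add nothing. In edgeR's cage test the unadjusted p was 0.0518 for Ago1 and 0.0782 for Drosha.

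**Figure D4:**
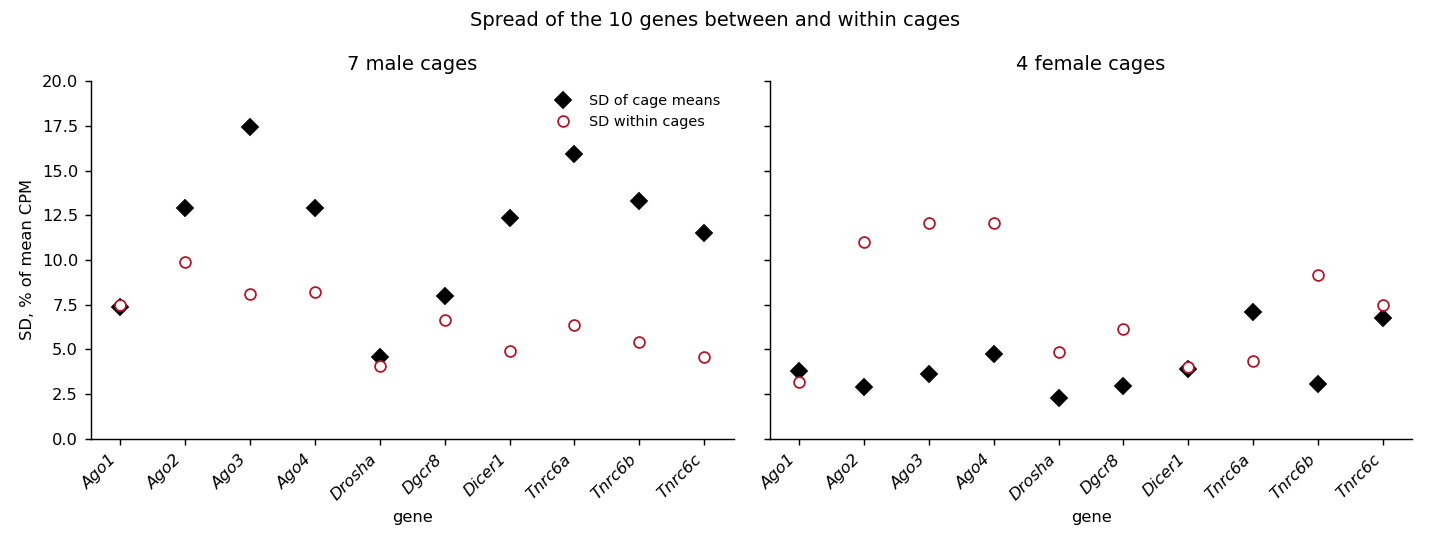
SD of the cage means (filled diamonds) and SD between the mice of a cage, rank difference included (open circles), each as a percent of mean CPM (vertical axis), for the 10 genes in the 7 male cages (left) and the 4 female cages (right). In males Ago3 lies at 17.4% between and 8.07% within cages, and Drosha at 4.59% and 4.08%.

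Long genes were more often called between the male cages, 10.9% of the 4229 genes with at least 4225 exon bases against 3.86% of shorter genes. With the exon length trend removed, 2 members were still called, Tnrc6a (adjusted p = 0.0179) and Ago3 (adjusted p = 0.0203, edgeR). In that fit 3.68% of all genes were called. Without dominant male 1, 8 members were called, with Ago2, Ago4 and Dgcr8 added, and 1778 of the 14787 genes tested were called. Without submissive male 1, 7 members and 14.2% of all genes were called. The 5 neuronal markers summed to cage means of 3532 CPM (cage 3) to 4009 CPM (cage 5) and the 4 oligodendrocyte markers to 4465 CPM (cage 4) to 5007 CPM (cage 5). Mean depth was 14180088, 13818190, 13859841 and 12627570 counted reads in cages 1 to 4 and 14843222, 14644620 and 15452160 in cages 5, 6 and 7, so the cages with low values were the deeper ones. Library numbers ran from 1 to 8 in cages 1 to 4 and from 9 to 14 in cages 5, 6 and 7. Cage and library number cannot be told apart here. The part of depth, library number or cell make-up in the result was not tested.

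Among the 4 female cages, 0 of 10 members were called by edgeR or DESeq2, with 0.074% of all genes called by edgeR. Tnrc6a (unadjusted p = 0.00366) and Tnrc6c (unadjusted p = 0.0125) had the smallest p-values in this edgeR fit, with adjusted p-values of 0.612 and 0.863. Tnrc6a had cage means between 83.3 and 97.8 CPM, and the male cages ran from 95.6 to 139 CPM.

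Between the 2 tables, 7 of 10 members were lower in females than in males, where 17.8% of all genes were lower and 36.2% were called in either direction (edgeR, 22 libraries). Tnrc6b was lower by the largest amount in this fit, though not without the exon length trend, at -0.46 on the log2 scale (standard error 0.0674, edgeR adjusted p = 6.50e-06), with 137 ± 10.2 CPM in females (SD, n = 8) against 188 ± 25.1 CPM in males (SD, n = 14). Ago3 followed at -0.42 (adjusted p = 0.000355), Ago4 at -0.36, Tnrc6a at -0.34, Ago2 at -0.27, Dicer1 at -0.21 and Dgcr8 at -0.16, the last with an adjusted p of 0.0141 in edgeR. Ago1 (0.11, adjusted p = 0.0641) and Drosha (0.08, adjusted p = 0.0634) were on the other side of 0 without passing edgeR's threshold, and Tnrc6c was at -0.02. This fit takes the 22 libraries as independent, although male cage mates shared levels. With cage mates summed the same 7 members and 4523 of 15827 genes were called. The edgeR adjusted p was then 0.000586 for Tnrc6b, 0.00677 for Ago3, 0.0449 for Dgcr8 and 0.0452 for Dicer1.

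No member lay above or below in all females against all males, where 4.03% of all genes lay above and 2.07% below without overlap. Tnrc6b had 126, 135 and 155 CPM as lowest, median and highest value in females and 139, 198 and 218 CPM in males, and Ago3 had 58.5, 66.6 and 76.6 CPM against 71.5, 90.5 and 116 CPM. The lowest males of either gene lay within the range of the females. Tnrc6c turned to the other side of 0 when the exon length trend was removed (0.11).

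Long genes were more often called between the tables, 48.6% of those with at least 4225 exon bases against 31.3% of shorter genes, with median log2 fold changes of -0.07 and 0.02. Without the trend on exon length, Dicer1 was no longer called (-0.06) and Ago1 (0.20) and Drosha (0.11) were called as higher in females. The value of Tnrc6b went to -0.22, a smaller difference than those of Ago3 (-0.31) and Ago4 (-0.28). Tnrc6a was at -0.22, Ago2 at -0.16 and Dgcr8 at -0.15. All of these genes, Tnrc6b, Ago3 and Ago4 included, were still called as lower by edgeR. In that fit 8 of 10 members and 5333 of 15233 genes were called in either direction. The 5 neuronal markers summed to 4246 to 4524 CPM in females and 3526 to 4084 CPM in males, without overlap, and the females were sequenced to 14967458 to 16488762 counted reads. The part of either in the result was not tested.

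Beyond the members, 106 genes of the pathway were found in the tables by symbol, in 7 lists that follow the route from the primary transcript to target decay. Between the male ranks 0 of the 98 tested were called and 0 had an unadjusted p below 0.05. The extremes were Trim71, which silences targets together with Argonautes in stem cells, at 0.38 (standard error 0.264) and Tdrd1, a Tudor protein of the germ line PIWI pathway, at -0.36 (standard error 0.299), both at about 1 CPM. Between the female ranks 0 of 97 were called by edgeR and 2 by DESeq2, with 10 at an unadjusted edgeR p below 0.05 (10.3%, against 10.5% of all genes) and 61 of 97 above 0 (62.9%, against 49.1% of all genes). Here Ddx4, a germ line helicase, was at 0.64 (adjusted p = 0.161, edgeR), with 2.55 to 3.03 CPM in the dominant and 1.38 to 2.03 CPM in the submissive mice, and Ajuba, a LIM protein that binds Argonautes, at -0.45 (adjusted p = 0.417, edgeR).

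Between the male cages 8 of 98 pathway genes were called, or 8.16% against 5.89% of all genes. Among them were 4 of the 10 tested transcripts that carry microRNAs (Meg3, Mir124a-1hg, Mirg and Rian), counted singly whether or not they share a locus. Of 21 Argonaute loading factors and partners 0 were called, but 10 had an unadjusted p below 0.05 in edgeR. The same held for 4 of the 10 microRNA transcripts and for 3284 of 14737 genes. Meg3, the start of a long imprinted transcript that includes many microRNAs, had the smallest p (adjusted p = 0.00151, edgeR), with cage means of 1722, 1496, 1672, 1780, 906, 1021 and 1182 CPM in cages 1 to 7. Ddx17, a helicase of the microprocessor, had 470, 448, 467, 474, 349, 371 and 385 CPM (adjusted p = 0.00271, edgeR). Mir124a-1hg, a host transcript of the neuronal miR-124, had 98.7, 103, 103, 97.3, 55.2, 61.9 and 67.2 CPM (adjusted p = 0.00442, edgeR). Like Ago3, these 3 genes had their lowest cage means in cages 5, 6 and 7. Between the female cages 1 of 97 was called, Btg2, an early response gene that binds the deadenylase (adjusted p = 0.00112, edgeR), with 12.9 to 24.7 CPM over the 8 females.

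Between the sexes 42 of 100 pathway genes were called, 17 higher and 25 lower in females, where 36.2% of all genes were called (2800 higher and 2712 lower). Their median log2 fold change was -0.02, against -0.24 over the members and -0.00 over all genes. Trim32, a ligase that binds Argonautes, was lower (-0.32, with 166 to 188 CPM in females and 199 to 238 CPM in males), as were Adar, which edits double-stranded RNA (-0.24), and Edc3, a decapping enhancer (-0.30). The HSP90 cochaperone Ptges3 (0.31, with 103 to 112 CPM in females and 75.3 to 92.0 CPM in males) and the chaperone Hsp90ab1 (0.27), both of Argonaute loading, and the deadenylase Cnot7 (0.22) were higher, each of the 6 with an adjusted p of at most 9.69e-07 in edgeR.

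For each member the gene with the most similar pattern was sought among 14659 other genes, by the smaller of Pearson's r over the 14 males and over the 8 females, on log2 CPM with group means removed. Ago3 was most like Rbm12b2 (r = 0.935 in males and 0.973 in females), Dicer1 like Ubr2 (0.947 and 0.961), Tnrc6a like Cramp1l (0.955 and 0.912) and Tnrc6b like Kmt2a (0.917 and 0.932). Ago2 was most like Hnrnpd (0.932 and 0.953), Ago4 like Rnpc3 (0.919 and 0.963), Ago1 like Prdm2 (0.913 and 0.919), Drosha like Gbf1 (0.881 and 0.911), Tnrc6c like Tet3 (0.892 and 0.892) and Dgcr8 like Eml6 (0.833 and 0.858). These values were the highest of many, are a description of these libraries, and in males include the differences between cages that cage mates share.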

How the data were processed

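Right brain hemispheres of 22 mice were sequenced as total RNA after removal of ribosomal RNA with a stranded kit. The authors used FastQC 0.11.8 for quality control, cutadapt 1.15 and bbduk for trimming, STAR 2.6.0a for alignment to mm10 and featureCounts 1.6.2 with iGenomes gene models for counting, and the versions are those of the submitters' processing notes. The deposited values are raw counts without normalization, 1 table per sex. The setting for strand and for reads that overlap several genes or map to several places is not given in the sources used here.

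From these counts, CPM were computed with TMM factors in edgeR 4.0.16 (R 4.3.3) over the 22 libraries and divided by exon length in kilobases as the tables give it. The filter on low expression asked for 10 counts per library in a group's worth of libraries and 15 counts in all. Tests were quasi-likelihood F tests in edgeR, with p-values adjusted after Benjamini and Hochberg over all genes kept and a threshold of 0.05, for rank within each sex, for all cage terms with rank in the fit, and for the mean of the female groups minus that of the male groups. The tests were tested on simulated data. Depth was 12403943 to 16488762 counted reads per library, so 1 count is worth 0.0596 to 0.0811 CPM. Within the groups all 54 pairs of libraries differed by more than sampling noise (mean chi-square per gene 1.81 to 16.6).

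The replicate number is the cage in the library names, and the paper states that both mice of a cage were sacrificed simultaneously, so the numbers pair the samples. After group means were subtracted, cage mates correlated across genes at a mean of 0.177 (males) and 0.0239 (females), other pairs of unequal rank at -0.0294 and -0.00798. The lowest correlation of cage mates was -0.0347 in males and -0.0257 in females, so not every pair stood out. Alternatives were DESeq2 1.42.0, edgeR with DESeq2's scaling, all genes without a filter, a mean count of at least 500, subtraction of a loess curve (span 0.3) fitted per library against exon length, the replicate block with and without that trend, cage mates summed, each library left out in turn and, for mean levels alone, the library total in place of TMM. The fits within female cages 1 and 2 and within 3 and 4, which differ in how the library names give the cage, were added after seeing the data.

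The members and the pathway lists were chosen with earlier results of these data known. Genes outside the 10 were named by a rule: list genes called in a fit (if more than 6, the 3 with the smallest p in each direction, or the 3 with the smallest p for cages), the list genes with the largest and smallest fold change in each rank fit, and the most similar gene of each member. Upstream and microRNA sequences are from RefSeq (GRCm38.p6), with entries for 9 members, the 5′-most start where there were several, and places in coding sequence from GENCODE vM21.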

Additional observations from a re-analysis of the deposited data

Results flagged for a closer look

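The levels of the 10 members in the 4 groups gave 40 groups of values, of which 1 held a mouse far from the others of its group, where chance alone marks about 1 in 20. Ago2 in submissive female 4 was at 49.7 CPM, and the other submissive females lay between 55.2 and 56.3 CPM, so the gap to the nearest was 0.833 of the range of the group. This mouse also carried the largest difference to its cage mate in Ago2 among the 4 female cages, 0.39 on the log2 scale.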

How the results depend on the processing

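In males 0 members and 0 pathway genes were called between ranks under every alternative fit of that comparison, the replicate block and each library left out included. Fold changes near 0 changed sign there: Dicer1 at 0.026 with the exon length trend removed and 0.027 with the replicate block as well, Tnrc6a at 0.014 and 0.013 in those settings and Tnrc6b at 0.011 and 0.010. Tnrc6c was at -0.000378 with DESeq2, -0.000212 with DESeq2's size factors, -0.000163 with no expression filter, -0.000728 at a mean count of at least 500 and -0.00280 with the replicate block. With each library left out in turn the ranges were -0.11 to 0.015 for Ago3, -0.032 to 0.064 for Ago4, -0.043 to 0.033 for Dicer1, -0.069 to 0.044 for Tnrc6a, -0.080 to 0.024 for Tnrc6b and -0.042 to 0.046 for Tnrc6c, and, with no change of sign, -0.10 to -0.019 for Ago1, -0.14 to -0.016 for Ago2, -0.071 to -0.026 for Drosha and -0.11 to -0.033 for Dgcr8. Between the tables Tnrc6c turned to 0.11 without the trend.

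The count of all genes called between female ranks, 14, was 78 with DESeq2, 84 without the filter, 0 without the exon length trend, 0 at a mean count of at least 500, 36 with the replicate block, 8 with block and trend, 5 in female cages 1 and 2, 120 in female cages 3 and 4, and 0 (without submissive female 1 or 3) to 77 (without dominant female 2) with a library left out. Pathway genes called there, 0, were 2 with DESeq2, 2 without the filter and 1 in cages 3 and 4. Between male cages the 868 genes called became 543 without the trend and 381 (without submissive male 3) to 2102 (without submissive male 1), the 5 members (5.89% of all genes) became 6 with DESeq2 (977 genes in all), 7 without the filter (5.90% of genes), 2 without the trend (3.68%) and 5 to 8 with a library left out (8 without dominant male 1, with 1778 of 14787 genes), and the 8 pathway genes 5 (without dominant male 7) to 22 (without submissive male 1). Between female cages the 11 genes became 5 with DESeq2, 99 without the filter and 7 (without submissive female 1) to 92 (without dominant female 2). The block changed no call on a member between male ranks, and calls on members between female ranks were not assessed under the block. Between female ranks Dicer1 turned to -0.04 without the trend. Where the trend lowers a count the cause was not tested. The depth of 12403943 to 16488762 counted reads leaves all members well above the filter.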
